A study of Mus musculus with 6 samples.

Results

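The 10 genes described here encode the NF-kappaB transcription factor subunits (Nfkb1, Nfkb2, Rel, Rela and Relb) and proteins that NF-kappaB induces and that restrain or redirect it (Nfkbia, Nfkbie, Nfkbiz, Bcl3 and Tnfaip3). They were taken by gene name from a count table of 43629 named gene models, and each name matched exactly 1 row. Heart tissue of male C57BL/6 mice on normal chow was compared at an age of 2 months (young) and 22 months (old), with 3 hearts from separate animals at each age. No genetic change or treatment is recorded, so age is the only labelled difference. RNA of heart tissue was sequenced, and the counts mix heart muscle cells with vascular, connective tissue and immune cells. Fewer cells of a type and less RNA per cell cannot be told apart in such samples.

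NF-kappaB proteins bind DNA as pairs of subunits. In resting cells the pairs are held in the cytoplasm by IkB proteins such as the products of Nfkbia and Nfkbie, and by the ankyrin repeats of the precursors p105 (Nfkb1) and p100 (Nfkb2). Signals from tumour necrosis factor, interleukin-1 or Toll-like receptors activate the IkB kinase, the IkB protein is degraded, and RelA-containing pairs enter the nucleus (the canonical pathway); a slower non-canonical pathway processes p100 and releases RelB. Several of the induced genes feed back: IkB-alpha is made again, A20 (Tnfaip3) edits ubiquitin chains upstream, and the nuclear IkB proteins IkB-zeta (Nfkbiz) and Bcl-3 change what the bound subunits do.

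Because several of these genes are known to be induced by NF-kappaB itself, promoter stretches that hold an NF-kappaB motif upstream of a start are shown. RefSeq promoter windows (GRCm38.p6, 250 bases before to 50 after an annotated start, 300 bases in all) were given for 7 of the 10 genes: Nfkb2, Rel, Rela, Nfkbia, Nfkbie, Bcl3 and Tnfaip3. The NF-kappaB consensus motif was found on either strand in a window of 6 of these 7 genes; of all 27025 genes with a window, 5.14% held it, and of all 32851 windows 4.51%. Rela had no match in its window, and the match of Bcl3, which is not printed, lay just past the annotated start. Nfkb2 had 3 windows, all with matches, and Tnfaip3 had 2, of which 1 held matches. The stretches of Nfkb2 come from its most upstream window. Its other 2 windows overlap each other and hold a match in common, and the matches in them are not printed. A match is a description of letters, not evidence of binding in these hearts. Capitals mark the bases covered by consensus matches, which can overlap each other because the motif is nearly symmetric; each line reads 5′ to 3′ on the strand of the gene.
Nfkb2, chr19:46304689-46304717, plus strand: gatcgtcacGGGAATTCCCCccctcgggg
Nfkb2, chr19:46304716-46304736, plus strand: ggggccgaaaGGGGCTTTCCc
Rel, chr11:23771042-23771070, minus strand: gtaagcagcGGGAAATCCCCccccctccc
Nfkbia, chr12:55492657-55492686, minus strand: tgactggcttGGAAATTCCCcgcgcctgac
Nfkbie, chr17:45555584-45555613, plus strand: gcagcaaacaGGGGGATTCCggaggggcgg
Tnfaip3, chr10:19015516-19015545, minus strand: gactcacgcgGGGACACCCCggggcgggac
Tnfaip3, chr10:19015411-19015432, minus strand: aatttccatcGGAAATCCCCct
Of the stretches printed, the match nearest to the start of its window's transcript began 11 bases upstream in Nfkb2, 12 in Tnfaip3, 29 in Nfkbia, 91 in Rel and 106 in Nfkbie. For Nfkb2 and Tnfaip3, GENCODE M21 places the gene's first base further upstream, so these stretches lie inside the gene by that annotation.

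All 10 genes passed the filter on low counts, and each had at least 1 young and 1 old library above its cutoff. Values are CPM, the counts of a gene relative to its library's total after TMM scaling, given for libraries 1, 2 and 3 of each age; means are ± SD with n = 3. Log2 fold changes are old over young ± approximate SE, from edgeR's quasi-likelihood test with Benjamini-Hochberg adjustment over all 14413 genes tested, and a gene was called at an adjusted p under 0.05. Libraries held 13673856 to 15583364 counts. Of the raw counts in named genes, the 10 genes together took 0.0201% to 0.0213% in young and 0.0229% to 0.0267% in old hearts. Mitochondrial transcripts took 25.1% to 26.8% of the same counts in young and 18.4% to 27.6% in old hearts. The mitochondrial share was lowest in old 2, where the share of the 10 genes was highest. The library old 1 stood nearest to the young ones over all genes (r of log2 CPM with the young libraries 0.956 to 0.963, against 0.941 to 0.947 for the other 2, across genes, which are not independent replicates).

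Nfkbiz was the member that rose in old hearts; the other 9 did not pass the test. The share called was 1 of 10, against 15.1% of all genes tested in either direction and 8.72% in the higher direction. At an unadjusted p under 0.05 it was 3 of 10 (Nfkbiz, Nfkb2 and Relb), against 32.5%. All 3 old libraries lay above all 3 young ones in 4 members (these 3 and Nfkbie), against 18.8% of all genes, and in 0 members did they all lie below, against 18.4%; ages that did not overlap in either direction made up 37.3% of all genes. The median log2 fold change of the 10 was 0.29, beside 0.02 over all genes tested. Of the 10 values 8 were above 0, beside 7432 of 14413 over all genes tested.

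**Figure D1:**
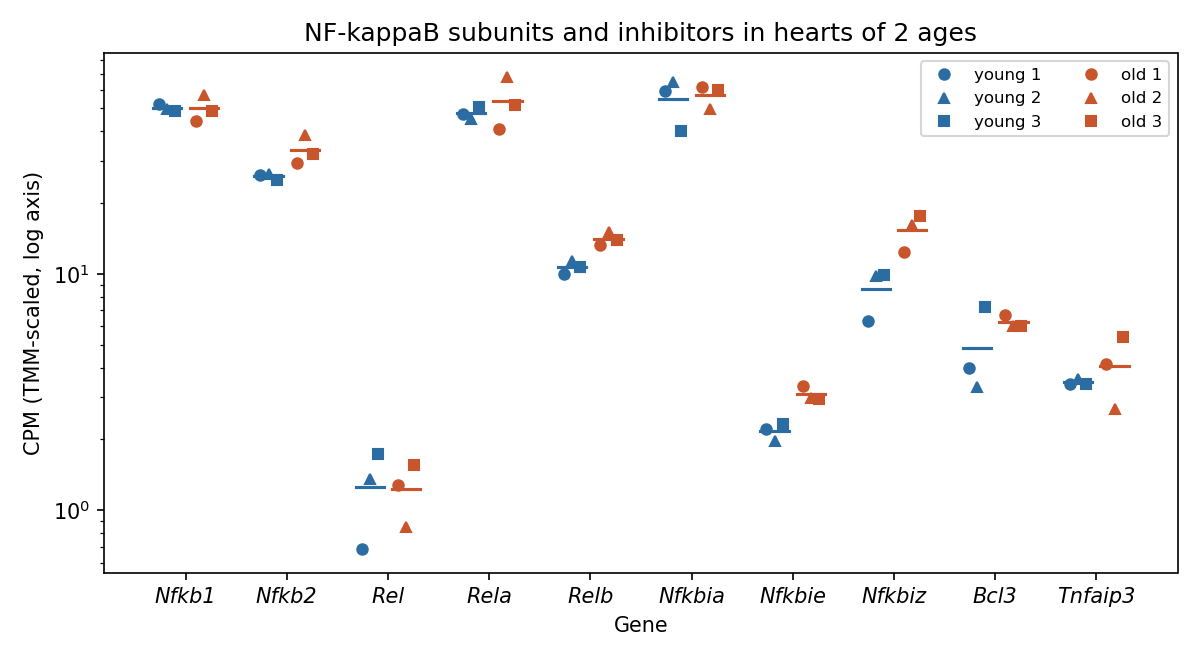
CPM of the 10 genes on a log axis, with a point for each of the 3 young (blue) and 3 old (orange) libraries and a line at the mean of each age. Points of the ages stand apart in Nfkb2, Relb, Nfkbie and Nfkbiz and overlap in the other 6.

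The levels of the subunits and inhibitors were first compared between genes per length, in the FPKM values that the authors deposited for 8 of the 10 (Rel and Tnfaip3 were not in that table as analysed here). In young hearts Nfkbia, the main cytoplasmic inhibitor, had the highest level (33.4 ± 8.08 FPKM, n = 3), followed by Rela (16.9 ± 0.912), Nfkb1 (10.1 ± 0.383) and Nfkb2 (7.54 ± 0.289), whose ranges did not overlap. Relb (2.64 ± 0.16), Bcl3 (1.87 ± 0.804) and Nfkbiz (1.66 ± 0.384) followed, and Bcl3 overlapped both of its neighbours. Nfkbie was lowest (0.856 ± 0.0671). In old hearts the order of the first 4 by mean was the same, but Nfkb1 (8.82 to 11.5 FPKM) and Nfkb2 (8.47 to 11.3) overlapped, and Nfkbiz (2.92 ± 0.531) stood between Relb (3.46 ± 0.248) and Bcl3 (2.40 ± 0.127) by mean and overlapped both in range. The order of Nfkb1 and Nfkb2 depends on the length used: with all exons of GENCODE M21 (12061 bases for Nfkb1 and 4584 for Nfkb2) the young means were 4.17 and 5.63 CPM per kilobase. On that scale Tnfaip3 had 0.481 and Rel 0.169 CPM per kilobase in young hearts, the lowest of the 10.

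Of the canonical subunits, Rela encodes RelA (p65), the partner that carries the transcription activation domain (ENSMUSG00000024927, chromosome 19, 5637483 to 5648130). It had 47.6, 44.9 and 50.5 CPM in young and 41.0, 68.1 and 51.7 CPM in old hearts. Old 2 was the highest and old 1 the lowest of the 6, so the old libraries enclosed the young ones (log2 fold change 0.17 ± 0.18, edgeR adjusted p = 0.547).

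Nfkb1 encodes p105 and its processed form p50 (ENSMUSG00000028163, chromosome 3, 135584655 to 135691547). Its level was 52.2, 49.6 and 48.9 CPM in young and 44.4, 57.0 and 48.7 CPM in old hearts. The ages overlapped, and the means were 50.2 ± 1.7 and 50.02 ± 6.36 CPM (log2 fold change −0.01 ± 0.13, 95% interval −0.30 to 0.29, edgeR adjusted p = 0.979).

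Rel encodes c-Rel, a subunit best known in lymphocytes (ENSMUSG00000020275, chromosome 11, 23736847 to 23770970). It had 10, 20 and 27 counts in the young and 21, 12 and 21 counts in the old libraries, or 0.686 to 1.74 and 0.85 to 1.56 CPM. The ages overlapped (log2 fold change −0.04 ± 0.43, edgeR adjusted p = 0.962). The 95% interval ran from −1.003 to 0.927, the widest of the 10.

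Both subunits of the non-canonical pathway had higher values in all old libraries, but neither passed the test. Nfkb2 encodes p100, which is processed to p52 (ENSMUSG00000025225, chromosome 19, 46304320 to 46312385). It had 26.2, 26.4 and 24.8 CPM in young and 29.4, 38.7 and 31.9 CPM in old hearts. The old values were all above the young ones, with old 1 nearest to them, and the log2 fold change was 0.37 ± 0.14 (95% interval 0.05 to 0.68, edgeR adjusted p = 0.104). The exons of Nfkb2 share 299 bases (6.52%) with Psd on the opposite strand, which had 50 to 82 counts in young and 48 to 102 in old libraries, and 531 bases with an antisense non-coding model; whether the counting used strand is not given in the sources used here.

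Relb encodes RelB, the usual partner of p52 (ENSMUSG00000002983, chromosome 7, 19606217 to 19629438). It had 10.02, 11.3 and 10.7 CPM in young and 13.3, 15.0 and 13.9 CPM in old hearts. The ages did not overlap and the spread was similar at both (0.646 and 0.884 CPM, SD, n = 3), with a log2 fold change of 0.40 ± 0.15 (95% interval 0.06 to 0.74, edgeR adjusted p = 0.104). Without old 1 both genes passed: the log2 fold change was 0.45 for Nfkb2 (edgeR adjusted p = 0.0128) and 0.43 for Relb (edgeR adjusted p = 0.0382). Leaving out old 1 raised the calls over all genes as well, from 2174 of 14413 to 5569 of 14702.

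**Figure D2:**
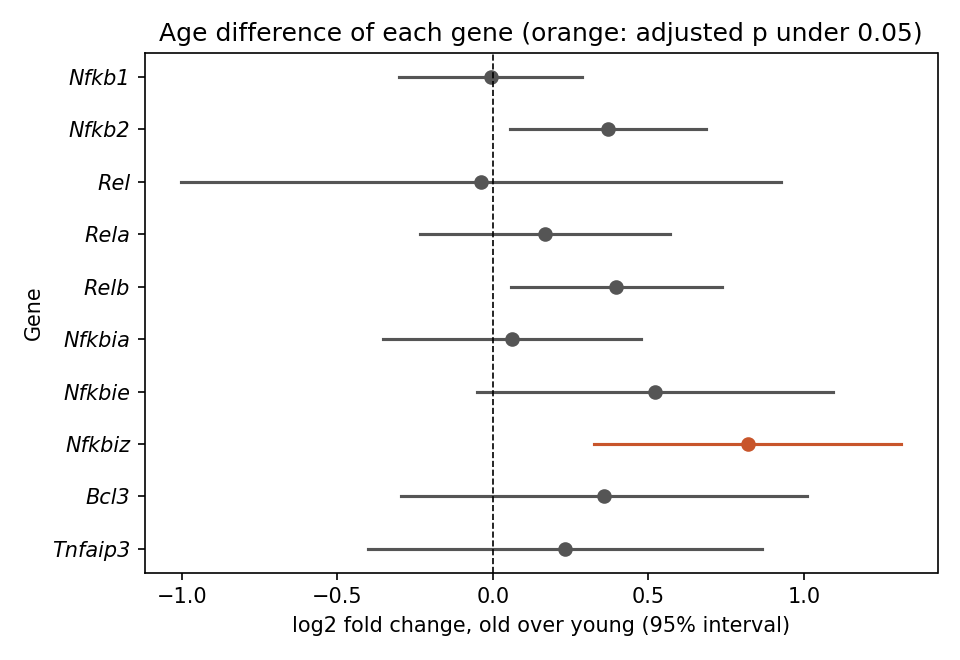
Log2 fold change of old over young for each gene (points) with its 95% interval (lines), from edgeR's fit over 6 libraries. Nfkbiz (orange) passed the adjusted threshold; the intervals of Nfkb2 and Relb exclude 0 without adjustment, and that of Rel is the widest.

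The balance of the subunits was also read within each library as a ratio of raw counts, which no scaling between libraries can change. For Nfkb2 over Nfkb1 it was 0.503, 0.531 and 0.507 in young and 0.661, 0.679 and 0.656 in old hearts. The lowest old ratio exceeded the highest young one, and the old mean was 1.3 times the young mean. Relb over Nfkb1 was 0.213 ± 0.0185 in young and 0.282 ± 0.0177 in old hearts (n = 3 each), without overlap. Relb over Nfkb2 overlapped between the ages, with 0.414 ± 0.0274 and 0.425 ± 0.0329. Rela over Nfkb1 overlapped as well, with 0.95 ± 0.0721 and 1.06 ± 0.137. The 2 ratios set out first were picked after their values were seen. Nfkb1 itself differed little (log2 fold change −0.01), so they mainly restate the values of Nfkb2 and Relb, which did not pass the test. Of the 45 ratios between 2 members 9 did not overlap between the ages, each of them with Nfkb1 or Nfkbiz as a term. The share among ratios of other genes was not computed, and of single genes 37.3% did not overlap. The ratios share genes, and they were not tested.

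**Figure D3:**
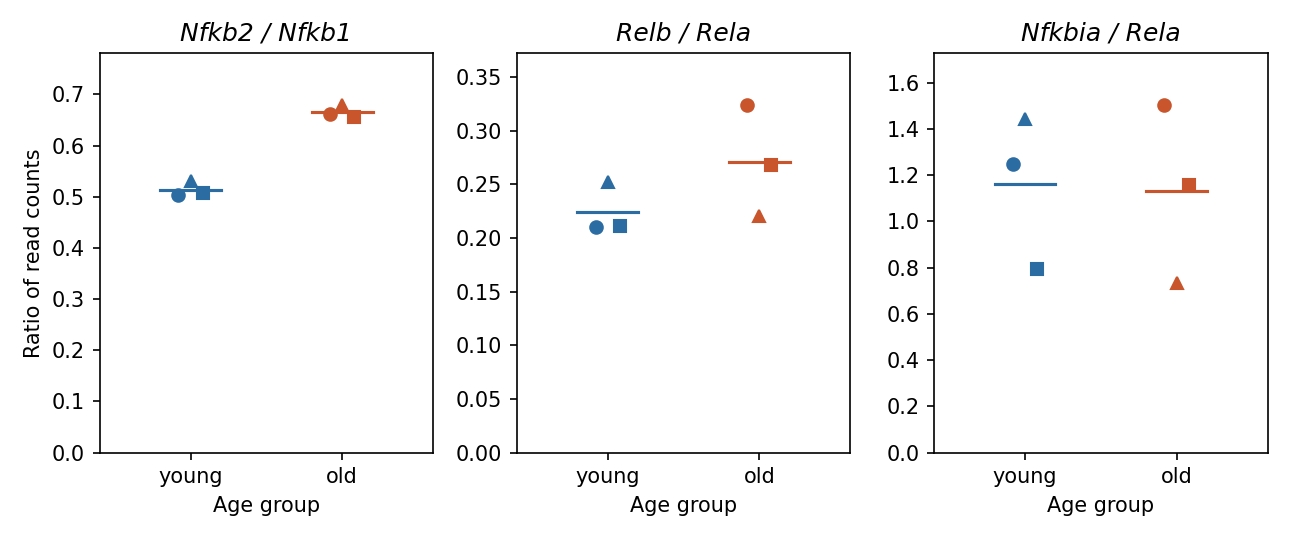
Ratio of read counts of Nfkb2 to Nfkb1, Relb to Rela and Nfkbia to Rela in each of the 6 libraries (points) with the mean of each age (lines); the axes start at 0. The ages stand apart in the panel of Nfkb2 to Nfkb1 and overlap in the other 2.

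The cytoplasmic inhibitors gave no call. Nfkbia encodes IkB-alpha, the inhibitor that is degraded and made again within a signalling cycle (ENSMUSG00000021025, chromosome 12, 55489410 to 55492647). It had 59.3, 64.8 and 40.0 CPM in young and 61.6, 49.9 and 59.8 CPM in old hearts. Young 3 was the lowest library of all, and the ages overlapped (log2 fold change 0.06 ± 0.18, 95% interval −0.35 to 0.48, edgeR adjusted p = 0.846). Counts of Nfkbia per count of Rela were 1.16 ± 0.334 in young and 1.13 ± 0.386 in old hearts (n = 3 each).

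Nfkbie encodes IkB-epsilon, a slower inhibitor of the same family (ENSMUSG00000023947, chromosome 17, 45555703 to 45563169). It had 32, 29 and 36 counts in the young and 55, 42 and 40 in the old libraries, which is 2.20, 1.97 and 2.31 against 3.37, 2.98 and 2.96 CPM. All old values exceeded all young ones. The log2 fold change was 0.52 ± 0.26, larger than that of Relb, but with fewer counts its interval ran from −0.05 to 1.10 (edgeR adjusted p = 0.187).

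Nfkbiz, which encodes the nuclear protein IkB-zeta that is needed for the induction of a set of secondary response genes such as Lcn2 and Il6, showed the largest fold change of the 10 (ENSMUSG00000035356, chromosome 16, 55811375 to 55838899). It had 6.31, 9.82 and 9.84 CPM in young and 12.3, 16.2 and 17.5 CPM in old hearts. The lowest old library (old 1) was above the highest young library, and young 1 lay below the other young ones. The mean rose from 8.66 ± 2.03 to 15.3 ± 2.69 CPM, 1.76-fold in the fit (log2 fold change 0.82 ± 0.22, 95% interval 0.33 to 1.31, edgeR adjusted p = 0.0364). It ranked 1703 by p among the 14413 genes. The call ended when any library other than old 1 was left out (edgeR adjusted p = 0.0813 to 0.131, log2 fold change 0.63 to 0.91) and in limma on the deposited FPKM (adjusted p = 0.0554 and 0.0564 with pseudocounts of 1 and 0.1). Lcn2 did not pass (edgeR adjusted p = 0.234). It had 3.79 to 5.01 CPM in young hearts and 15.8, 4.32 and 3.71 CPM in old 1, 2 and 3. Il6 had 0 to 6 counts per library and was too low for the test.

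Bcl3 encodes Bcl-3, a nuclear IkB protein that binds p50 and p52 pairs (ENSMUSG00000053175, chromosome 7, 19808462 to 19822770). It had 3.98, 3.32 and 7.26 CPM in young and 6.67, 6.02 and 6.00 CPM in old hearts. Young 3 was the highest of all 6 libraries, while the 3 old ones were close together. The log2 fold change was 0.36 ± 0.29 (edgeR adjusted p = 0.421), and without young 3 it was 0.75 (edgeR adjusted p = 0.129). An antisense model that shares 6.51% of its exon bases had at most 1 count in any library.

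Tnfaip3 encodes A20 (ENSMUSG00000019850, chromosome 10, 19000910 to 19015657). It had 50, 53 and 53 counts in the young and 68, 38 and 73 in the old libraries, or 3.43, 3.59 and 3.41 against 4.16, 2.69 and 5.41 CPM. The old libraries lay on both sides of the young ones. The coefficient of variation was 2.86% at the young and 33.3% at the old age, and the log2 fold change was 0.23 ± 0.28 (edgeR adjusted p = 0.604).

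**Figure D4:**
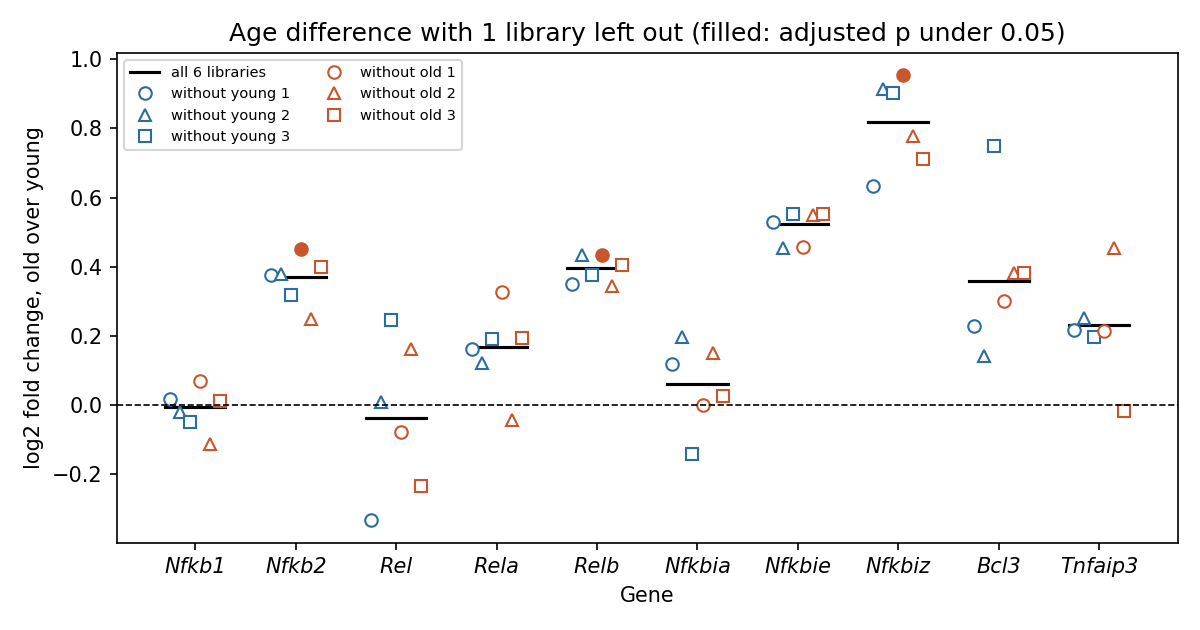
Log2 fold change of each gene with all 6 libraries (black line) and with 1 library left out (points; blue without a young, orange without an old library; filled where the adjusted p was under 0.05). The filled points are those of Nfkb2, Relb and Nfkbiz without old 1, a setting that called 5569 of 14702 genes in all. Nfkbie stays between 0.45 and 0.55.

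Over the 6 libraries, the genes whose log2 CPM profiles lay nearest to that of Nfkbiz, each centred on its own young mean, were Aim1 (distance 0.176), Vwa3a (0.192) and Crip1 (0.289), out of 13593 genes with a mean of at least 1 CPM and a median distance of 1.69. Each rose by a similar size (log2 fold change 0.80, 0.83 and 0.76). The 6 libraries fall into 2 ages, and the likeness was chosen over these same libraries, so it is a description.

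Upstream of the subunits, 1 receptor gene rose. Of 19 ligands and receptors 13 could be tested, of which Il1r1, the signalling receptor of interleukin-1, was higher and 12 did not pass (beside 15.1% of all genes called). Il1r1 had 18.4, 22.3 and 22.4 CPM in young and 32.9, 33.4 and 41.3 CPM in old hearts, a rise of 0.77 ± 0.15 on the log2 scale (edgeR adjusted p = 0.0116); the call ended without young 1, 2 or 3 (edgeR adjusted p = 0.0542 to 0.0699). Tnf, the prototype ligand, had 1, 2 and 2 counts in the young and 8, 6 and 7 in the old libraries and was too low for the test. Its receptor gene Tnfrsf1a overlapped between the ages (48.7 ± 3.06 and 45.4 ± 12.5 CPM, edgeR adjusted p = 0.742), with old 1 the highest library (59.8 CPM) and old 2 and old 3 the lowest (37.8 and 38.6 CPM); without old 1 the log2 fold change was −0.35 (edgeR adjusted p = 0.0218). Tlr3, a receptor of double-stranded RNA, had 0.64 ± 0.24 (edgeR adjusted p = 0.0955, and 0.0261 without old 1), and the ligand Ltb, which acts on the non-canonical pathway, had 1.53 ± 0.58 with at most 21 counts in any library (edgeR adjusted p = 0.102). Ltb had 2, 11 and 4 counts in the young libraries, and without young 2 its log2 fold change was 2.43 (edgeR adjusted p = 0.0754).

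Both catalytic subunits of the IkB kinase rose. Of 28 kinases and adaptors tested 6 were higher and 0 lower (beside 8.72% and 6.36% of all genes), and their log2 fold changes had a median of 0.19. Ikbkb, which encodes the kinase of the canonical pathway, went from 45.3, 46.5 and 44.8 to 51.4, 101.7 and 78.0 CPM. Chuk, which encodes the kinase that acts on p100, went from 39.7, 40.9 and 39.0 to 46.3, 76.1 and 65.5 CPM. In both genes the young values were close together, the old ones spread over a wide range and old 1 was nearest to the young ones (log2 fold change 0.76 ± 0.22 and 0.65 ± 0.18, edgeR adjusted p = 0.0440 and 0.0373). The scaffold gene Ikbkg (NEMO) had 0.33 ± 0.18 and did not pass (edgeR adjusted p = 0.237), and there old 1 was the highest library (48.4 CPM). Without old 1 the log2 fold changes were 0.98 for Ikbkb, 0.83 for Chuk and 0.09 for Ikbkg (edgeR adjusted p = 0.000336, 0.000346 and 0.533).

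Map3k8 (Tpl2, a kinase held by p105) rose by 1.05 ± 0.18 on the log2 scale, from a mean of 7.98 ± 0.517 to 16.6 ± 2.89 CPM (edgeR adjusted p = 0.00707), and Traf1, an adaptor that NF-kappaB induces, from 2.21 ± 0.245 to 6.62 ± 3.98 CPM (1.57 ± 0.40). In Traf1 old 2 was the highest library with 11.1 CPM, against 3.55 and 5.19 in the other old ones, and without it the log2 fold change was 0.97 (edgeR adjusted p = 0.0661). Irak2 (0.59 ± 0.17), a kinase of interleukin-1 signalling, and Rnf31 (0.71 ± 0.21), a subunit of the linear ubiquitin ligase, were the other 2 that rose. Map3k8 passed under each of its 15 alternatives, with adjusted p of at most 0.0471. The calls of Ikbkb, Chuk, Traf1, Irak2 and Rnf31 ended without young 1, 2 or 3 and without old 2 or 3. Without old 1 the count was 14 of 28, beside 5569 of 14702 genes in all. Without any other library it was 1, beside 539 to 1541 genes in all. On the FPKM scale it was 1 of 27 with either pseudocount, beside 1634 and 1653 genes in all.

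Among 20 further inhibitors of the pathway 4 rose and 1 fell (beside 8.72% and 6.36% of all genes), and the median of the list was 0.10 on the log2 scale. The higher ones were Otulin, which removes linear ubiquitin chains (0.83 ± 0.14, edgeR adjusted p = 0.00635), Tnip2 (0.86 ± 0.14) and Tnip1 (0.52 ± 0.12), which bind A20, and Irak3 (0.93 ± 0.23), a kinase-like brake on interleukin-1 and Toll-like receptor signals. Otulin had 31.8, 29.2 and 31.6 CPM in young and 63.1, 48.5 and 53.0 CPM in old hearts, without overlap. Nkiras2, a small GTPase-like protein that binds IkB, had 48.1, 41.3 and 41.5 CPM in young and 26.4, 28.5 and 22.4 CPM in old hearts, without overlap, and fell by 0.76 ± 0.14 on the log2 scale (edgeR adjusted p = 0.00955). Nfkbib, the third classical IkB gene, had −0.15 ± 0.12 (edgeR adjusted p = 0.419), and Cyld, another deubiquitinase, 0.28 ± 0.14 (edgeR adjusted p = 0.189). The count was 9 of 20 without old 1, beside 5569 of 14702 genes in all. It was 2 to 4 without any other library, beside 539 to 1541 genes in all. The call ended for Irak3 without young 1, 2 or 3 or old 3, for Tnip1 without any library but old 1, and for Nkiras2 without young 1 (edgeR adjusted p = 0.0509 to 0.136).

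**Figure D5:**
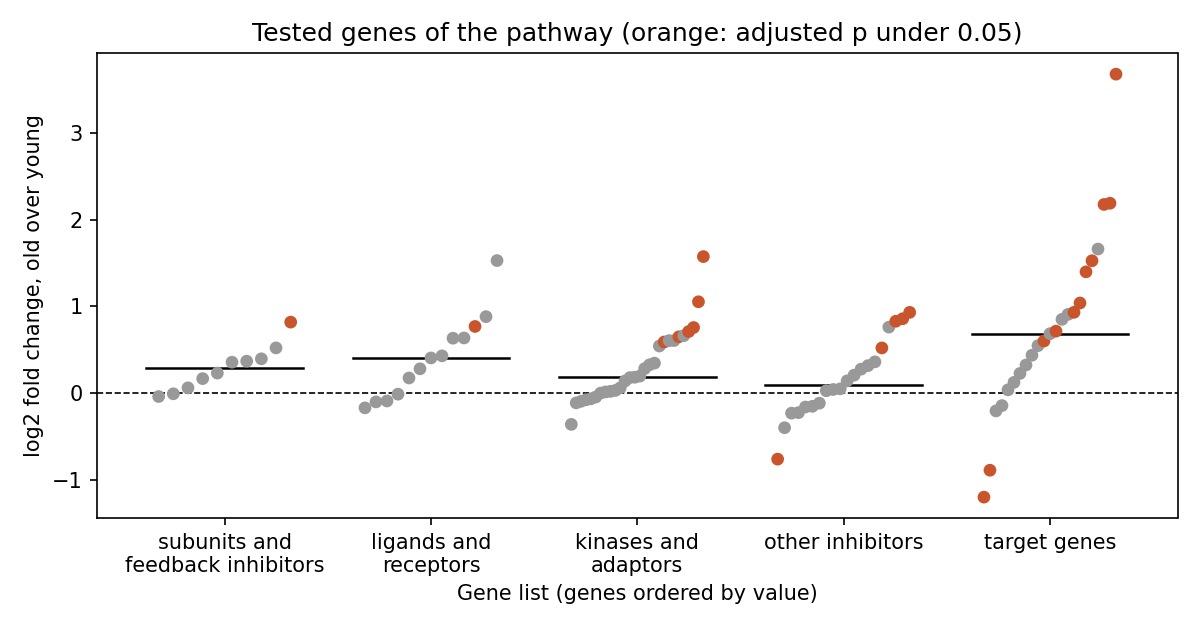
Log2 fold change of old over young for every tested gene of the 5 lists, ordered by value within a list; orange points passed the adjusted threshold and black lines are medians (0.29, 0.41, 0.19, 0.10 and 0.69 from left to right). The target genes hold both the highest and the lowest values. The highest is that of Bcl2a1b, which, like Mmp9, passed the filter only through the old libraries. Both genes are included in the median of 0.69.

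Genes described as targets of NF-kappaB moved in both directions. Of 31 listed 23 could be tested, and 9 rose and 2 fell (beside 8.72% and 6.36% of all genes), and the median of the list was 0.69 on the log2 scale. Of the 9 that rose 2, Bcl2a1b and Mmp9, had no young library above the filter's cutoff and passed it only through the old ones, so that they had to differ; they are named for this reason, after their values were seen. Bcl2a1b, which has near-identical copies that can share its reads, had 1, 2 and 0 counts in the young and 15, 14 and 13 in the old libraries, and Mmp9, a matrix protease gene, had 7, 4 and 5 against 28, 12 and 32. With no filter 10 of 31 were higher and 2 lower, beside 1675 and 1182 of 23978 genes in all. Vcam1, an adhesion molecule of activated endothelium, had 11.7, 11.6 and 12.0 CPM in young and 29.3, 20.04 and 23.1 CPM in old hearts, a rise of 1.04 ± 0.17 on the log2 scale (edgeR adjusted p = 0.00582). Icam1, another adhesion molecule, rose from 12.4 ± 1.97 to 20.4 ± 2.92 CPM (0.72 ± 0.17, edgeR adjusted p = 0.0261).

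The macrophage growth factor gene Csf1 rose from 30.2 ± 2.17 to 79.5 ± 27 CPM (1.40 ± 0.24, edgeR adjusted p = 0.00711) and the early response gene Ier3 from 20.0 ± 2.42 to 38.2 ± 6.52 CPM (0.93 ± 0.16, edgeR adjusted p = 0.00793). The monocyte chemokine gene Ccl2 had 1.03, 0.813 and 0.836 CPM in young and 7.28, 2.55 and 2.37 CPM in old hearts (2.19 ± 0.49, edgeR adjusted p = 0.0188); old 1 was the highest, and without it the log2 fold change was 1.45 (edgeR adjusted p = 0.00971). The 2 that fell were Sod2, the mitochondrial superoxide dismutase (449 ± 22.7 to 243 ± 47.3 CPM, log2 fold change −0.89 ± 0.16), and Nos2, the inducible nitric oxide synthase (12.6 ± 1.14 to 5.48 ± 1.77 CPM, −1.20 ± 0.24). Without 1 young library at a time the count was 3, 4 and 6 of 24, beside 539 to 619 genes called in all. The call of Icam1 ended without young 1, 2 or 3 or old 2 or 3, that of Ccl2 without young 1, 2 or 3, that of Nos2 without young 1 or 2, that of Ier3 without young 2 and that of Sod2 without young 1 (edgeR adjusted p = 0.0502 to 0.118).

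Summed levels of pan-leukocyte, neutrophil, T and NK cell and macrophage markers were higher in all old than in all young libraries, as Nfkbiz was; those of B cell markers overlapped. The summed level of 7 pan-leukocyte genes was 57.5 to 68.1 CPM in young and 127 to 136 CPM in old hearts, and 6 of the 7 were higher by edgeR, beside 8.72% of all genes (Ptprc, which encodes CD45, by 1.26 log2 units). The sum of 4 neutrophil genes was 3.05 to 4.67 and 12.5 to 20.5 CPM, and that of 6 T and NK cell genes 1.29 to 2.33 and 4.53 to 5.34 CPM. The sum of the 7 matched of 8 macrophage and monocyte genes was 301 to 380.2 and 410.4 to 653 CPM, with old 1 the highest, and 1 of them (C1qa) was higher. C1qa had 51.1 to 59.3 CPM in young and 122 to 138 CPM in old hearts. Of the others, Cd68 did not overlap between the ages, but Csf1r, Mrc1, Cd14, Lyz2 and Cd163 did, so the sum does not show a rise of the whole list. These 4 sums did not overlap between the ages (exact two-sided permutation p = 0.1 each, the smallest that 3 against 3 allow). The sum of 5 endothelial genes was lower in old hearts, 1103 to 1258 against 740.7 to 781 CPM (exact two-sided permutation p = 0.1). The sums of 4 B cell (2.44 to 4.46 and 1.2 to 3.48 CPM), 5 fibroblast (702 to 934 and 454 to 1094 CPM) and 6 immediate early genes (99.5 to 127 and 101 to 140.2 CPM) overlapped (exact two-sided permutation p = 0.6, 0.8 and 1). No matched marker was at 0 in all libraries, and the sum of 6 heart muscle genes was 38870 to 49050 CPM, above that of every other marker list. The part of these cells in the levels of Nfkbiz, Nfkb2 and Relb was not tested.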

How the data were processed

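RNA of 6 mouse hearts was sequenced. HISAT2, featureCounts, Subread and the build GRCm38.p6 are named in the submitters' processing notes; the sources used here do not give versions, strand setting or annotation release. The labels' extraction text names NRVMs, which differs from the heart tissue named elsewhere in the labels. The authors deposited raw counts per gene, which are whole numbers, and FPKM values for 13170 genes, for which the sources used here give neither the gene lengths nor the filter.

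Of 44200 gene models, 571 without a name were left out (0.295% to 0.369% of counts). Genes were filtered with filterByExpr, scaled by TMM and tested with edgeR 4.0.16 (quasi-likelihood F test, R 4.3.3) over the 6 libraries; the scripts were tested on simulated data. The SE is the absolute log2 fold change over the square root of F, and intervals are unadjusted. The edgeR p-values set the age difference against the variation among 3 animals per age, with a dispersion moderated across genes. The alternatives were: RLE or upper-quartile scaling; no filter or 1 CPM in 3 libraries; DESeq2 1.42.0; limma 3.58.1 (voom, or log2 FPKM with a pseudocount of 1 or 0.1); a block for the replicate number; and leaving out single libraries. Positions come from GENCODE M21 (GRCm38), and promoters from RefSeq (GRCm38.p6).

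The members and lists were chosen with earlier results of these data known. Named genes are the 10 members, in each list the 3 tested genes ranking first by p, and 10 pathway genes set by role. Tnip1, Irak3, Irak2, Rnf31, Nos2, Sod2, Bcl2a1b, Mmp9, Lcn2 and Il6 were named after their values were seen.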

Additional observations from a re-analysis of the deposited data

How the results depend on the processing

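Nfkbiz was called in 8 of 15 alternatives, with a log2 fold change of 0.56 to 0.95. The count of called members was 1 with all 6 libraries, 0 on the FPKM scale with either pseudocount (8 members in that table) and 0 to 3 with 1 library left out. Left-out libraries gave 539 (without young 1) to 5569 (without old 1) called genes in all. They gave 0 to 3 ligands and receptors, 1 to 14 kinases and adaptors, 2 to 9 other inhibitors and 3 to 12 target genes. Kinases and adaptors called were 3 with limma-voom, beside 2016 of 14413 genes in all. On the FPKM scale 1 of them was called with either pseudocount, beside 1634 and 1653 genes in all. Leaving out single libraries changed the sign of 6 log2 fold changes, which ranged from −0.11 to 0.070 for Nfkb1, −0.14 to 0.20 for Nfkbia, −0.33 to 0.25 for Rel, −0.043 to 0.33 for Rela, −0.017 to 0.46 for Tnfaip3 and −0.35 to 0.015 for Tnfrsf1a. Rel was also at 0.014 with limma-voom and 0.0051 with the replicate block. The cause of these changes was not tested. The replicate numbers are not said to pair animals of the 2 ages. Correlations of same-numbered deviations were −0.09, −0.07 and 0.03, which cannot exclude that same-numbered animals were handled together. With the replicate block 1774 genes were called in place of 2174, and 1 member, 1 ligand or receptor, 4 kinases and adaptors, 5 other inhibitors and 10 target genes. Among the members, Rel had 10 to 27 and Nfkbie 29 to 55 counts per library; of the other genes named, Tnf had 1 to 8 and Ltb 2 to 21, and counts this low limit the precision of their values.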
